A study of Mus musculus with 2 samples.

Results

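The 36 genes described here carry glucose into the cell, break it down to pyruvate and lactate, and sense or answer to low oxygen. The rule that picks them is a list of gene symbols. Of these, 23 belong to the path from glucose to lactate and the gate to pyruvate oxidation. The other 13 belong to the hypoxia-inducible factor (Hif) pathway. The 36 are among the 43346 annotated genes measured, and all 36 were found in the gene tables by identifier. They were measured by total RNA-seq of whole mouse hindbrain of strain B6NCrl, at embryonic age 10.5 days, in 2 pools of male and female embryos. Replicate 1 pooled the hindbrains of 69 embryos and replicate 2 those of 51. No allele, treatment or control group is named, so the only comparison the data allow is between the pools, and each pool is 1 library with no replicate of its own. Both carry the same donor identifier in the labels, so differences between them measure the spread between these samples, which may be partly technical. Each library began from 10 ng of RNA longer than 200 nucleotides, with spike-in RNAs added.

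Glycolysis splits glucose in 10 enzymatic steps, and the last steps return ATP and NADH. Lactate dehydrogenase then regenerates NAD+ by reducing pyruvate to lactate, which leaves the cell through monocarboxylate transporters, so ATP can be made without oxygen. In cells with oxygen, prolyl hydroxylases mark the Hif alpha subunits for destruction through Vhl; in low oxygen the alpha subunit persists, pairs with Arnt, and binds a short core sequence near genes of glucose use, blood vessel growth and pH control. The embryo at this stage lives in little oxygen, and dividing neural progenitors are known for high aerobic glycolysis.

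The libraries held 38170090 and 36382245 expected counts in annotated genes, that is, estimated reads divided between the features they fit. Levels are given in TPM, a share of all transcripts that is corrected for length, so levels of different genes can be compared. A single count in a gene of 1 kb was worth 0.037 TPM in replicate 1 and 0.0413 TPM in replicate 2, and the spike-ins took 13.0% and 7.82% of TPM. Of 8 hindbrain marker genes 7 reached 1 TPM in each library, the limit used for detection, and the lowest was the rhombomere factor Egr2 at 0.45 and 1.72 TPM. Of 5 forebrain markers 2 reached that level, Emx2 at 1.00 and 1.90 TPM and Lhx2 at 21.2 and 14.7 TPM. The pools differed in the levels of several marker sets. The summed TPM of 10 neuronal markers was 2031 in replicate 1 and 1286 in replicate 2, with 0 of 10 higher in replicate 2. That of 5 choroid plexus markers was 293 and 65.7, of 6 macrophage markers 91.1 and 62.5, and of 6 muscle and heart markers 8.00 and 29.6. Most of the choroid plexus sum was Ttr, at 250 and 35.3 TPM. Only 1 of those 5, Otx2, was higher in replicate 2, at 12.0 and 15.7 TPM. All 7 cell cycle markers were higher in replicate 2, with sums of 1353 and 1859 TPM. Of 8 neural progenitor markers only 2 were higher there, with sums of 2271 and 1906 TPM. The 8 hindbrain markers likewise had 2 higher, with sums of 225 and 175 TPM. In bulk tissue, fewer cells of a type and less RNA per cell cannot be told apart.

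Of the 36 genes, 35 reached 1 TPM in each library, against 33% of annotated genes and 58.8% of protein-coding genes. Together they held 1.34% of the TPM of annotated genes in replicate 1 and 1.70% in replicate 2. The 14 enzyme genes of the 10 steps made up most of this, at 1.04% and 1.26%, and the 13 Hif pathway genes held 0.034% and 0.038%. Levels spanned from Car9, at 0.60 and 0.79 TPM, to Eno1 and Ldha, and 14 of the 36 averaged at least 100 TPM. By mean TPM, Eno1, Pkm, Ldha and Gapdh ranked 30, 32, 33 and 36 among the annotated genes.

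**Figure D1:**
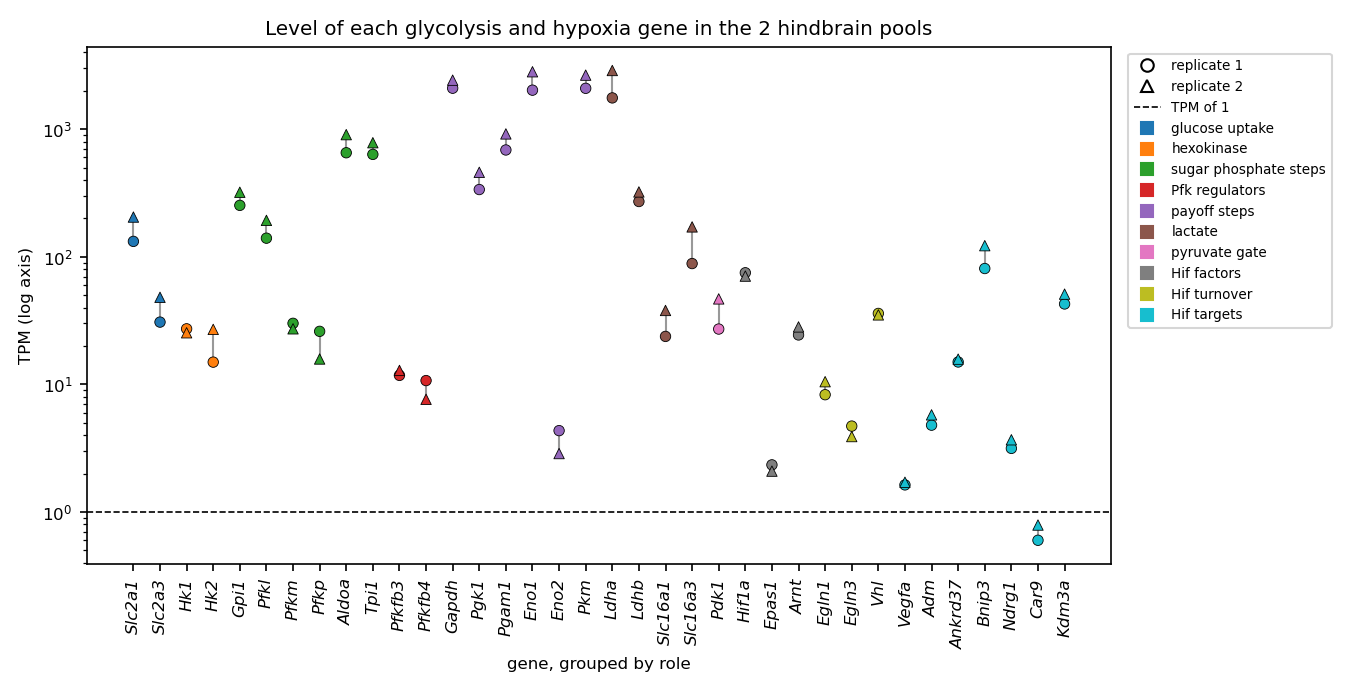
TPM of each of the 36 genes on a log axis, with circles for replicate 1, triangles for replicate 2 and colours for the gene's role; the dashed line marks a TPM of 1. Gapdh, Eno1, Pkm and Ldha stand at the top, between 1759 and 2884 TPM, and Car9 is the single gene under the line in both libraries.

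Glucose enters through Slc2a1 and Slc2a3, the transporters known as GLUT1 and GLUT3. Slc2a1, the main carrier of embryonic tissue and the blood-brain barrier, had 132 TPM in the first pool and 205 TPM in the second. Slc2a3, the high-affinity carrier typical of neurons, had 30.8 and 48.1 TPM. Both were higher in replicate 2, and Slc2a1 exceeded Slc2a3 by 4.29-fold in replicate 1 and 4.26-fold in replicate 2, so their ratio hardly differed between the pools.

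Hexokinases trap glucose as glucose 6-phosphate. Hk1, the form of most adult brain cells, was at 27.3 and 25.4 TPM, and Hk2, the inducible form of muscle and growing cells, at 14.9 and 27.0 TPM. Their order differed between the libraries: Hk1 was 1.82-fold above Hk2 in replicate 1 and 0.941 times its level in replicate 2. The Hk2 level depended on a short transcript. Hk2-202, a non-coding processed transcript of 594 bases, held 51.6% and 55.04% of the gene's TPM but 8.87% and 10.1% of its expected counts. With the length of the transcript that held the most counts, Hk2 was at 7.94 and 13.5 TPM, under Hk1 in both pools.

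The next steps prepare the sugar for splitting. Gpi1, which turns glucose 6-phosphate into fructose 6-phosphate, was at 253 and 321 TPM. Phosphofructokinase, the main control point, is made from subunits of 3 genes. The liver-type subunit Pfkl led at 140 and 193 TPM, ahead of the muscle-type Pfkm at 30.1 and 27.3 TPM and the platelet-type Pfkp at 26.0 and 15.8 TPM. Pfkl exceeded Pfkm by 4.65-fold and 7.08-fold, and Pfkp by 5.37-fold and 12.2-fold, in replicates 1 and 2. Pfkm and Pfkp were close in replicate 1 and apart in replicate 2. The aldolase gene Aldoa, which splits the 6-carbon sugar, had 654 and 907 TPM, and Tpi1, which interconverts the triose products, 635 and 783 TPM. Pfkfb3 and Pfkfb4 make and degrade fructose 2,6-bisphosphate, the activator of phosphofructokinase. Pfkfb3 was at 11.8 and 12.9 TPM and Pfkfb4 at 10.7 and 7.64 TPM. Both were below each of the 3 phosphofructokinase genes, but Pfkfb3 was close to Pfkp in replicate 2.

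The later steps, which harvest ATP and NADH, hold 3 of the 4 genes with the highest mean TPM, Eno1, Pkm and Gapdh; the other is Ldha. Gapdh, which oxidises glyceraldehyde 3-phosphate, was at 2094 and 2422 TPM. Pgk1, the first ATP-making enzyme, was at 337 and 459 TPM, and Pgam1, which moves the phosphate group, at 687 and 918 TPM. Eno1, the ubiquitous enolase, was at 2022 and 2819 TPM, and Pkm, the pyruvate kinase of non-liver tissue, at 2090 and 2652 TPM. All 5 had more TPM in replicate 2, as did 59.6% of all genes with a mean TPM of 1 or more. Eno2, the enolase of mature neurons, was at 4.34 and 2.87 TPM, and Eno1 exceeded it by 466-fold and 982-fold. Eno2 rests on 237 and 112 expected counts, so this ratio is less precise than the others.

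Lactate dehydrogenase subunit A, the form that favours pyruvate reduction, exceeded subunit B in both pools. Ldha was at 1759 and 2884 TPM and Ldhb at 271 and 322 TPM, a ratio of 6.49 and 8.95. Of the lactate carriers, Slc16a3 (MCT4), the exporter of strongly glycolytic cells, was at 88.5 and 171 TPM and Slc16a1 (MCT1) at 23.8 and 38.0 TPM. Slc16a3 exceeded Slc16a1 by 3.72-fold and 4.52-fold. Pdk1, which phosphorylates pyruvate dehydrogenase and so limits the oxidation of pyruvate inside the mitochondrion, was at 27.1 and 46.8 TPM. All 5 of these genes had more TPM in replicate 2, beside the same 59.6% of all genes; spike-ins took less of TPM there.

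The Hif genes together held little of the RNA, though Hif1a, Arnt and Vhl were as abundant as several of the enzymes. Hif1a, the oxygen-regulated alpha subunit found in most cells, was at 74.9 and 70.6 TPM. Epas1, the Hif2 alpha subunit typical of endothelium, was at 2.34 and 2.09 TPM, so Hif1a exceeded it by 32.0-fold and 33.8-fold. Arnt, the shared partner, was at 24.4 and 28.2 TPM. Alpha subunits are controlled mostly as protein, which RNA levels do not show. Of the prolyl hydroxylases, Egln1 (PHD2), the main oxygen sensor, was at 8.30 and 10.5 TPM and Egln3 (PHD3) at 4.71 and 3.90 TPM, a ratio of 1.76 and 2.69. Vhl, the substrate receptor of the ubiquitin ligase that removes the alpha subunits, was at 35.97 and 35.1 TPM. None of these 6 genes differed between the pools as much as 1.5-fold on scaled counts. Few genes did: of all those averaging 1 TPM or more, 5.7% were that much higher in replicate 2 and 9.98% that much lower.

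The 7 targets of Hif outside glucose use were spread widely. Bnip3, a mitophagy receptor, was the highest at 80.9 and 122 TPM, followed by Kdm3a, a histone H3 lysine demethylase, at 42.7 and 51.0 TPM. Ankrd37, an ankyrin repeat protein, was at 15.0 and 15.8 TPM. Adm, the vessel-active peptide adrenomedullin, was at 4.79 and 5.77 TPM, and Ndrg1, a stress-responsive gene, at 3.15 and 3.68 TPM. Vegfa, the growth factor that draws vessels into the neural tube, was at 1.63 and 1.71 TPM, from 111 and 120 expected counts. Car9, a membrane carbonic anhydrase, was the lowest of the 36, at 31 and 25 expected counts. Vegfa and Adm, the vessel signals, were thus among the 7 least abundant of the 36 genes.

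Differences between the pools were also measured as log2 ratios of counts scaled by TMM, which sets most genes near 0. Of the 35 genes that averaged 1 TPM or more, 24 had a ratio above 0, that is, were higher in replicate 2, where 51.6% of all 15006 such genes were. Their median log2 ratio was 0.23, against 0.01 for all such genes, whose 10th to 90th percentile ran from -0.58 to 0.44. Of the members, 6 were at least 1.5-fold higher in replicate 2, where 5.7% of all genes were, and 1 was at least 1.5-fold lower, where 9.98% were. The 6 were Slc16a3 at 0.92, Pdk1 at 0.85, Hk2 at 0.70, Ldha at 0.65, Slc16a1 at 0.61 and Slc2a3 at 0.59 on the log2 scale. Slc2a3 just passed the 1.5-fold limit and Slc2a1, at 0.56, fell just short of it. Eno2 was the one lower, at -0.98. By the ratio of TPM instead, Eno2 at -0.58 fell just short of 1.5-fold and Pfkp at -0.72 was the one lower. Slc2a1 and Bnip3 joined the 6 higher. On that scale 7.44% of all genes were at least 1.5-fold higher, and the share lower was not computed. With 1 library on each side there is no test, and edgeR's coefficient of variation between the pools was 0.216 over all genes.

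**Figure D2:**
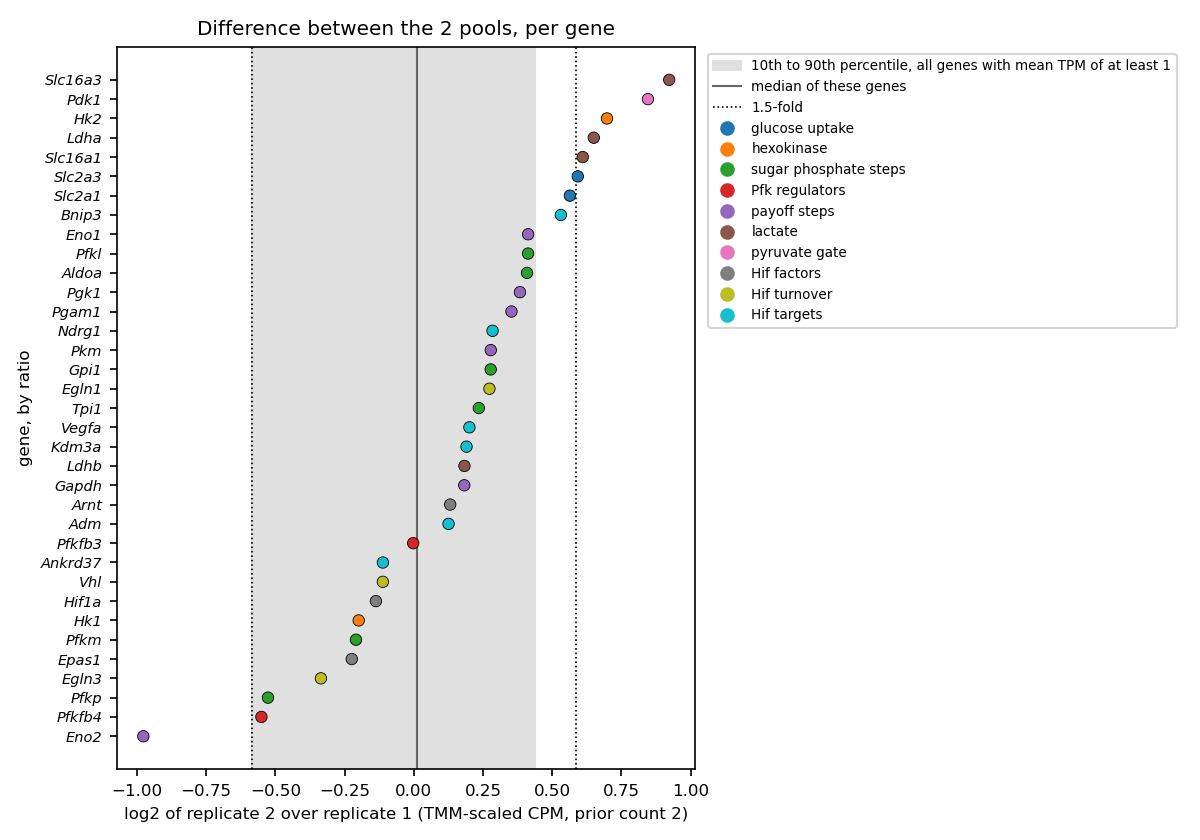
Log2 ratio of replicate 2 over replicate 1 for the 35 genes that averaged 1 TPM or more, coloured by role, with the 10th to 90th percentile of all 15006 such genes shaded and dotted lines at 1.5-fold. Slc16a3, Pdk1, Hk2, Ldha, Slc16a1, Slc2a3, Slc2a1 and Bnip3 lie to the right of the shaded range, and Eno2 alone lies to the left of it.

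The 6 genes act in glucose uptake, hexokinase, lactate production and export, and the pyruvate gate, where other members had smaller ratios, Hk1 at -0.20 and Ldhb at 0.18. Gapdh, Tpi1, Gpi1, Pkm, Pgam1, Pgk1, Aldoa, Pfkl and Eno1 had ratios from 0.18 to 0.41. Pfkm was at -0.21 and Pfkp at -0.53. By role, 17 of the 23 genes from glucose to lactate were higher in replicate 2, with a median of 0.35. Of the 12 Hif genes that could be compared, 7 were higher, with a median of 0.13, and 0 were past 1.5-fold. Among all 15006 genes 51.6% were higher in replicate 2, 5.7% were at least 1.5-fold higher and 9.98% at least 1.5-fold lower. Of the Hif genes, Bnip3 had the highest ratio at 0.53 and Egln3 the lowest at -0.34. Slc16a3's ratio was exceeded by 302 of the 15006 genes, Pdk1's by 374 and Ldha's by 657.

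The coefficient of variation was 0.276 for genes at a log2 CPM of 3 and 0.145 at 9, so the abundant members were also set beside genes of like level. All 14 members with a mean of at least 100 TPM were higher in replicate 2, with a median of 0.40. Of 1704 genes chosen by the same cut, 58% were higher, with a median of 0.04. Slc16a3 at 88.5 and Bnip3 at 80.9 TPM were under 100 TPM in replicate 1. They passed the cut only through replicate 2, so their place among the 14 is partly set by the cut. Of these 14, Ldha and Slc16a3 were at least 1.5-fold higher, where 1.47% of the 1704 were, and 0 were at least 1.5-fold lower, where 2.46% were. The direction depends on what is held constant. Scaled to the spike-ins instead, the median of all 15006 genes moved up by 0.80, and 34 of the 35 members then had a ratio above 0, where 93.2% of all genes did. On that scale 30 members were at least 1.5-fold higher, where 74.3% of all genes were. None of the members was at least 1.5-fold lower, and the share of all genes that were was not computed.

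The pools' cell cycle markers had a median log2 ratio of 0.40 and their neuronal markers one of -0.95, while red cell markers had 0.18 and endothelial markers -0.04. Neural progenitor markers had -0.11 and hindbrain markers -0.34. The 4 surface ectoderm markers compared had 0.43, with 3 higher in replicate 2 and Krt14 lower at -0.27. The sums of all 5 were 85.7 and 130 TPM. The fifth, Krt5, averaged under 1 TPM and was lower in replicate 2, at 1.77 and 0.14 TPM. The 3 forebrain markers compared had 0.60, with 2 higher and Lhx2 lower at -0.72. The 3 muscle and heart markers compared had 2.40. Eno2, the neuronal enolase, was lower in replicate 2, as the neuronal markers were, but Slc2a3, a carrier typical of neurons, was higher. The part of these markers in the members' ratios was not tested.

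Of 82 other genes of these pathways, 67 reached 1 TPM in each library, and 42 of the 69 that could be compared were higher in replicate 2, where 51.6% of all genes were. Of the 69, 4 were at least 1.5-fold higher, a share near the 5.7% of all genes, and 0 were at least 1.5-fold lower, where 9.98% were. The 4 were Slc16a7, another lactate carrier, at 0.88, and Emb, a chaperone of such carriers, at 0.74, with Car12 and Epo. Car12, a carbonic anhydrase, had a ratio of 0.76 from 0.70 and 1.40 TPM, so its mean reached 1 TPM only through replicate 2. Epo, the red cell hormone, had 1.65 from 1.02 and 3.76 TPM. Car12 rests on 60 and 97 expected counts and Epo on 18 and 57. In the list of other glycolytic enzymes and relatives 12 of 19 were detected. Its highest was Pgam5, a mitochondrial phosphatase related to Pgam1 and not itself glycolytic, at 73.5 and 81.9 TPM, followed by the bisphosphoglycerate mutase Bpgm at 57.2 and 53.5 TPM, and Eno4 was the lowest detected at 1.39 and 1.04 TPM. Of the other carriers, Bsg, the partner of Slc16a1 and Slc16a3, was the highest at 548 and 554 TPM. Its log2 ratio was -0.05, against 0.61 and 0.92 for those partners. By mean TPM the lowest detected carrier was the glucose transporter Slc2a12, at 1.63 and 1.61 TPM.

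For pyruvate entry into the mitochondrion and its first steps there, the median was 0.04 over 12 compared genes. Pdhb, a subunit of pyruvate dehydrogenase, was the highest at 159 and 165 TPM. Pdk2, another kinase of the gate, was the lowest detected by mean TPM, at 12.1 and 9.03 TPM. The pyruvate carrier genes Mpc1 and Mpc2 were lower in replicate 2, at -0.41 and -0.44. Pdk2 had a ratio of -0.52, against 0.85 for Pdk1. All 7 pentose phosphate genes were detected, from Rpia at 1.45 and 1.89 TPM to Taldo1 at 286 and 268 TPM, with a median of 0.15. Of 9 other Hif regulators 2 were higher in replicate 2, with a median of -0.12, and Elob, part of the Vhl complex, was the highest at 871 and 842 TPM and Hif3a, another alpha subunit, the lowest at 4.41 and 3.97 TPM. Of 20 other Hif targets 17 were higher, with a median of 0.22. Bnip3l, a mitophagy receptor, was the highest at 348 and 400 TPM. Bhlhe40, a transcriptional repressor, was the lowest detected by mean TPM, at 1.37 and 1.55 TPM.

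**Figure D3:**
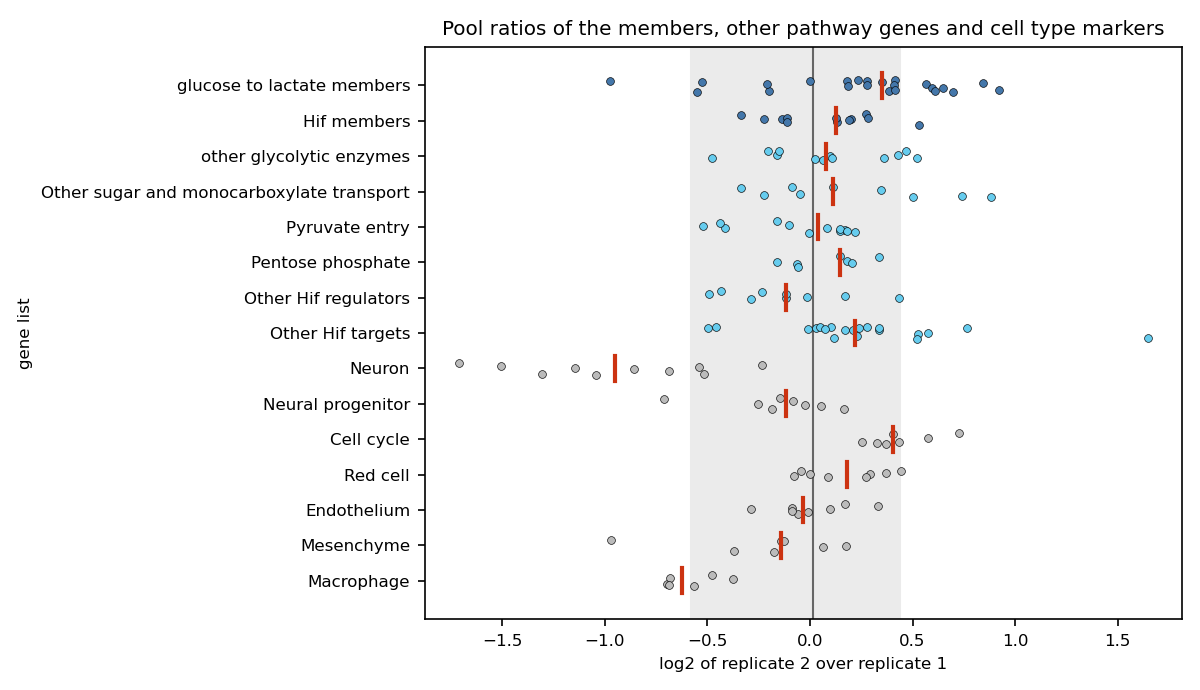
Log2 ratio of replicate 2 over replicate 1 for each gene that averaged 1 TPM or more, by list: the members in dark blue, other pathway genes in light blue and cell type markers in grey, with the list's median as a red bar. The shaded range is the 10th to 90th percentile of all genes and the vertical line their median; the glucose to lactate members have a median of 0.35, near the cell cycle markers at 0.40, and the neuronal markers one of -0.95.

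The genes of the path are made as several transcripts, and Pkm is the best known case. Its alternative exons are mutually exclusive. Pkm-201 holds the downstream exon, of the M2 form known from embryonic and proliferating cells, and Pkm-202 the upstream exon, of the M1 form known from muscle and mature neurons. Both exons are 167 bases of coding sequence in GENCODE M21 transcripts on mm10. They differ at 64 bases, with 61.7% identity, which is what allows reads to tell the forms apart. The exons are shown with differing bases in capitals.
Pkm-201, M2 exon, chr9:59675568-59675734, plus strand: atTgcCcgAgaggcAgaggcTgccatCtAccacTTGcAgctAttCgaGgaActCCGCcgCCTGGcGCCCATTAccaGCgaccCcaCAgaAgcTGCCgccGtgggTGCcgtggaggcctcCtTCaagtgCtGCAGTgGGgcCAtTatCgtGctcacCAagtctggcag
Pkm-202, M1 exon, chr9:59675029-59675195, plus strand: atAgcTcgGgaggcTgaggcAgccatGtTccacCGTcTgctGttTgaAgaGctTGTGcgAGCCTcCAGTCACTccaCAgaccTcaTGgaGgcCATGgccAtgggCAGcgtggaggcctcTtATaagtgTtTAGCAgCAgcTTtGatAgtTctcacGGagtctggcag

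Pkm-201 was at 1868 and 2551 TPM. Pkm-202 was at 222 and 102 TPM. The M1 form was thus 10.6% of the gene's TPM in replicate 1 and 3.84% in replicate 2, from 14022 and 5759 expected counts. Pkm as a gene was higher in replicate 2 and its M1 transcript lower, alongside the neuronal markers, whose part in this was not tested.

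**Figure D4:**
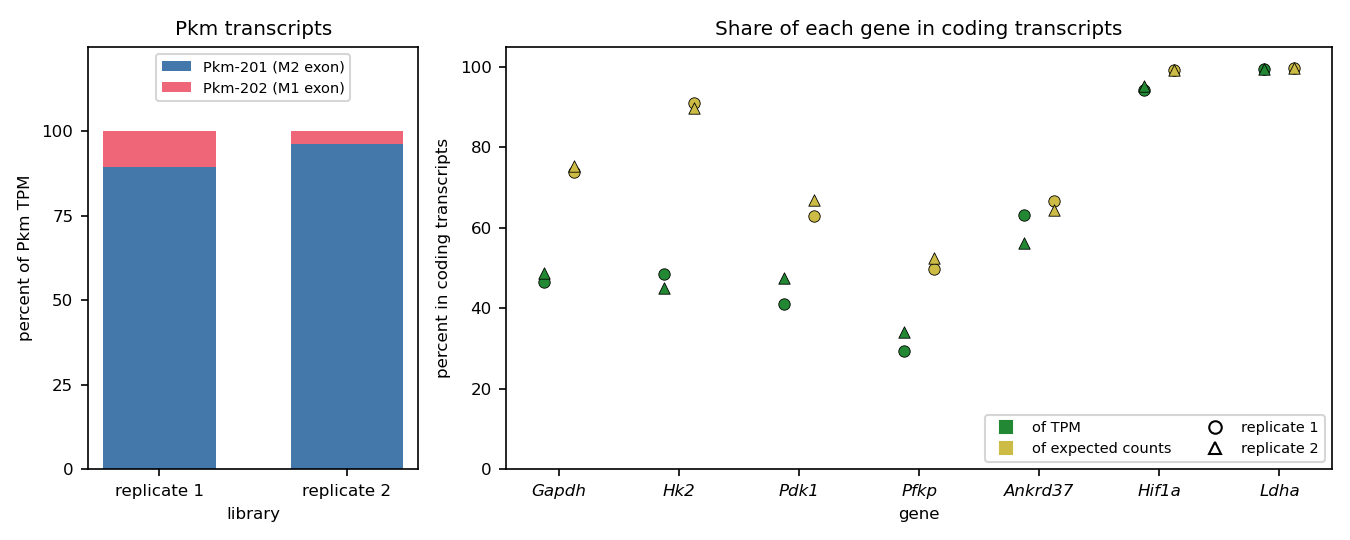
Left, percent of Pkm TPM in the M2 transcript Pkm-201 and the M1 transcript Pkm-202 in each library. Right, percent of 7 genes in protein-coding transcripts, by TPM in green and by expected counts in yellow, with circles for replicate 1 and triangles for replicate 2; for Gapdh and Hk2 the share by TPM is far under the share by counts, and for Ldha both are near 99%.

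In 18 of the 36 genes a single transcript held at least 95% of TPM in both libraries, among them Ldha, Eno1, Gpi1, Tpi1, Pgk1 and Bnip3; 6 of the 18, such as Pgam1 and Slc16a1, have only 1 transcript in the tables. In 12 genes the leading transcript held under 75% in both. Gapdh was such a gene. Gapdh-208, a processed transcript of 483 bases, held 52.7% and 50.3% of its TPM but 24.9% and 23.1% of its counts, and the full coding Gapdh-203 held 38.4% and 41.1% of TPM. With the length of the transcript with the most counts, Gapdh was at 1290 and 1532 TPM, and it stayed among the 4 most abundant members. In Pdk1 the coding Pdk1-201 held 41.1% and 47.6% and the processed Pdk1-208 35.1% and 34.1%. In Pfkp, coding transcripts held 29.4% and 34.0%, and Pfkp-210, a retained intron, was the top transcript at 39.0% and 35.4%, ahead of the coding Pfkp-201 at 21.4% and 18.7%. The tables cannot show whether reads given to these transcripts came from the coding form, so the level per length of Gapdh, Hk2, Pdk1 and Pfkp is uncertain.

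Other genes had more than one coding start. Hif1a-201 held 70.4% of TPM in both libraries and Hif1a-202, which starts 6529 bases away, 22.8% and 24.1%. Hk1-202 held 77.0% and 68.8% and Hk1-201, 17820 bases away, 19.9% and 25.4%. Pfkm-202 and Pfkm-201, 15877 bases apart, held 62.8% and 37.2% in replicate 1, and 64.9% and 35.1% in replicate 2. In Slc16a3, 3 coding transcripts shared the gene, with Slc16a3-201 at 50.2% and 55.3%, Slc16a3-202 at 31.4% and 29.1% and Slc16a3-207 at 14.2% and 11.7%. Arnt also had several coding transcripts, but Arnt-202 and Arnt-203 start only 2 bases apart. Arnt-202 held 66.1% and 61.5% and Arnt-203 13.7% and 13.0%.

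A transcript's share differed by more than 10 points between the pools in 6 genes, Pfkfb3, Vegfa, Eno2, Ankrd37, Ndrg1 and Car9. Pfkfb3 had 965 and 904 expected counts, and the other 5 genes at most 318 in either library. Pfkfb3-205 and Pfkfb3-206, which start 11 bases apart, held 31.5% and 39.9% of TPM in replicate 1, and 45.2% and 20.6% in replicate 2. By expected counts Pfkfb3-206 led in both, with 59.7% against 19.4% and 32.2% against 29.2%. In Ankrd37 the coding Ankrd37-201 held 63.3% and 56.3% of TPM and the retained intron Ankrd37-203 14.8% and 22.4%. In Eno2 the coding Eno2-202 held 27.1% and 35.9% and the retained intron Eno2-203 25.3% and 19.5%. In Vegfa, Vegfa-201 held 32.9% and 65.9% and Vegfa-202 14.6% and 34.1%.

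Some values are uncertain because reads fit more than 1 place. The pseudogene Pgk1-rs7 was given 60.7 and 85.7 TPM, equal to 17.1% and 17.7% of the expected counts of Pgk1, which it closely copies. Pgam1-ps2 was given 36.8 and 43.4 TPM, or 2.06% and 1.82% of those of Pgam1, and Ldha-ps2 0.092% and 0.082% of those of Ldha. In GENCODE M21, 21 of the 36 members overlap another annotated gene. Whether strand was used in counting is not given in the sources used here. Senp1, on the opposite strand from Pfkm, had 29.1 and 37.1 TPM, and Pitrm1, opposite to Pfkp, 62.3 and 81.0 TPM. The low Car9 has the antisense Gm12454, at 1.00 and 0.92 TPM, across its start.

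The core that Hif binds reads ACGTG or GCGTG, so the promoters of the members were read for it on both strands. RefSeq windows on GRCm38.p6, from 250 bases before to 50 bases after the start, were given for 33 of the 36 members, and Slc2a3, Ndrg1 and Epas1 had no entry. For each gene the window nearest the start of its main coding transcript was taken. ACGTG was in 18 of the 33, or 54.5%, against 19.6% of 32851 promoters, and GCGTG in 19, or 57.6%, against 32.4%. At least 1 of the 2 was in 27, or 81.8%, against 43.8%. Over all 48 windows of the members, the shares were 47.9% for ACGTG, 52.1% for GCGTG and 75% for either. The members' windows were richer in G and C, with a median of 62.7% against 52.7%. Among all promoters with at least 55% G and C, the shares were 25.4% for ACGTG, 53.1% for GCGTG and 63.8% for either, so the GCGTG share over the 48 windows was no higher than in these. ACGTG also lies inside the E-box CACGTG, bound by other factors, which was in 6 of the 33 windows, or 18.2%, and in 12.5% of the 48, against 7.15% of all promoters and 10.2% of those rich in G and C.

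The sequences before the start of the 5 genes with a window among the 6 that were at least 1.5-fold higher in replicate 2 are printed here, 5′ to 3′ on the gene's strand, to show where the core lies. Capitals mark ACGTG and GCGTG, or CACGT and CACGC where the core is on the other strand, and CACGTG where both strands hold it.
Ldha promoter, chr7:46845554-46845803, plus strand: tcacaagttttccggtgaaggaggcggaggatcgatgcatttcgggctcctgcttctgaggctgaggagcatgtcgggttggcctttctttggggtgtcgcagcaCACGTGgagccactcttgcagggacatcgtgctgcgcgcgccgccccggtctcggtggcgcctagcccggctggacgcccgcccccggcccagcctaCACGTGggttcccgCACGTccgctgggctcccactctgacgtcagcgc
Slc16a3 promoter, chr11:120948817-120949052, plus strand: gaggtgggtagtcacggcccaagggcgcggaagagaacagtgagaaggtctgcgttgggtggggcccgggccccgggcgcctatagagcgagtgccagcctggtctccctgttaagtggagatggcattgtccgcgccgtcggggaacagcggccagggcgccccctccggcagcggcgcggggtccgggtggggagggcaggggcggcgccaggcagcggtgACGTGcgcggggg
Pdk1 promoter, chr2:71872974-71873223, plus strand: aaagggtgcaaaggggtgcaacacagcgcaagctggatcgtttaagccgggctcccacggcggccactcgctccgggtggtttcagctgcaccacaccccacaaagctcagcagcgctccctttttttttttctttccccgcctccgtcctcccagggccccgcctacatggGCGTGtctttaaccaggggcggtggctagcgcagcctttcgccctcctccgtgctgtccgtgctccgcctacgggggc
Hk2 promoter, chr6:82774455-82774704, minus strand: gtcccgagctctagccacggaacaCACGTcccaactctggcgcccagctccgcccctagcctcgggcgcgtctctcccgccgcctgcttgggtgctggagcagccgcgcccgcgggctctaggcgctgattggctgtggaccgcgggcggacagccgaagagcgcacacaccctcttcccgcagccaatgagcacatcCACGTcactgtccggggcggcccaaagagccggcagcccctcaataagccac
Slc16a1 promoter, chr3:104638414-104638663, plus strand: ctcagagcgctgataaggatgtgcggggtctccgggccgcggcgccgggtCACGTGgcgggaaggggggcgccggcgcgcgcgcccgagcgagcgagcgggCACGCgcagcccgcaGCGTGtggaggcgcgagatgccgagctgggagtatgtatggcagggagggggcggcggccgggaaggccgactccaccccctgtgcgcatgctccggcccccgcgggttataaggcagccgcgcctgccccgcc

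In the printed Ldha bases the core was matched 5 times, within CACGTG beginning 145 and 48 bases before the start, which count once on each strand, and as CACGT 34 bases before it. The printed Slc16a1 bases held 4 matches, of which 2 lie in CACGTG 200 bases before the start. Hk2 held CACGT 226 and 52 bases before the start, Pdk1 held GCGTG 78 bases before it, and Slc16a3 held ACGTG 27 bases before it. In the whole 300-base windows there were 7 matches for Ldha, 5 for Slc16a1 and 2 each for Hk2, Pdk1 and Slc16a3. The Slc16a3 window belongs to another start than that of Slc16a3-201, 587 bases away, and its printed bases end 14 bases before the window's own start. Members that were lower in replicate 2 held the core too, among them Hk1 with 5 matches and Pfkp with 4 in their 300-base windows, and Eno2, Gpi1, Pkm, Tpi1, Vegfa and Vhl held none there. Of the 33 windows 27 belong to a start within 100 bases of that of the main coding transcript. Besides Slc16a3, those of Vegfa, Eno1, Pkm, Tpi1 and Hk1 were 562, 244, 208, 138 and 121 bases from it. A match is a run of letters and shows no binding, and its absence says only that these letters are not in this window.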

How the data were processed

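Expected counts, that is estimated counts, were deposited per gene and per transcript with TPM, posterior mean TPM and FPKM, per the file headers. Per the file headers, the transcript tables also give the percent of each gene in each isoform, and the authors' posterior standard deviation of the count, a score that was not printed. Assembly mm10 and annotation M4 come from the deposited file notes. For the aligner, the quantification program and the use of strand: not given in the sources used here. Per the labels' protocols, RNA was extracted with mirVana, and a SMARTer Ultra Low manual is listed.

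The gene table had 69691 rows: 43346 annotated genes, 26248 tRNAs and 97 spike-ins. Symbols came from GENCODE M21 by unversioned identifier, and 42462 (98.0%) matched. Expected counts of annotated genes were rounded and scaled with TMM in edgeR 4.0.16 (R 4.3.3), and log2 ratios used a prior count of 2. DESeq2 1.42.0 size factors, total counts, spike-ins, other prior counts and TPM ratios were alternatives, and pair ratios of TPM used a pseudocount of 0.1. Genes averaging 1 TPM or more were compared, and 1.5-fold stood in for a call, since 1 library a side allows no test. The ratio script was tested on simulated data. Isoform percents were recomputed from TPM. Tables and figures were made in Python 3.11.15.

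All members are named. In genes with several major transcripts, those with at least 10% of TPM in both libraries are named, besides both Pkm forms; genes led by 1 transcript are counted. Other pathway genes are named where they are highest or lowest detected in their list by mean TPM, or past 1.5-fold. Others named, such as Mpc1 and Mpc2, were chosen after their values were seen. The members and lists were chosen with earlier results of these data known.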

Additional observations from a re-analysis of the deposited data

How the results depend on the processing

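No paired analysis was possible because the series has 1 group. Ratios between the pools cannot be computed without either library. Scaling to the spike-ins moved the members' median log2 ratio from 0.23 to 1.04. The number at least 1.5-fold higher in replicate 2 moved from 6 to 30, where the share of all genes moved from 5.7% to 74.3%. The number at least 1.5-fold lower moved from 1 to 0. Spike-in scaling moves nearly every gene, since the spike-in share differs between the libraries. At 2-fold, 0 members were higher and 0 lower, and the shares of all genes were not computed. DESeq2 size factors and total counts each gave 5 members at least 1.5-fold higher, where 5.46% and 5.30% of all genes were. The ratio of TPM gave 8, where 7.44% of all genes were, with Pfkp in place of Eno2 as the 1 lower. The share of all genes that were lower was not computed on these other scales. The number detected was 36 with posterior mean TPM or a limit of 0.5 TPM, and 29 at 5 TPM. With 1 library left out, the number detected was 35 to 35, the pairs whose first gene was the higher numbered 8 to 9 of 10 (8 with both), the genes with a leading transcript of at least 95% numbered 20 to 20 (18 with both), and the Pkm-202 share was 3.84% to 10.6%. With 1 library left out, the log2 ratio of Hk1 to Hk2 was -0.088 to 0.86, where the mean of both libraries was 0.39. With the length of the transcript that holds the most counts, an alternative chosen after seeing the data, the log2 ratio of Pfkfb3 to Pfkfb4 was -0.17 in place of 0.44; the cause was not tested beyond the change of length. The genes with few counts, Car9, Vegfa and Eno2, limit what depth can show.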
